A study of Mus musculus with 8 samples.

Results

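A total of 1273 regions of the mouse genome had no listed ATAC-seq peak in fibroblasts or on day 5 of reprogramming, had one on day 10 and also had one in embryonic stem cells (ESCs). ATAC-seq maps open chromatin by the insertion of a transposase. The regions were chosen by peak presence alone: peaks of the 4 deposited lists lying within 400 bp of each other were merged, which gave 101701 regions, and those with a day 10 peak and an ESC peak but no fibroblast or day 5 peak were kept. They made up 1.25% of all regions and 4.41% (95% Wilson interval, 4.18 to 4.65) of the 28863 regions with an ESC peak and no fibroblast peak. In the text they are called late-opening ESC regions.

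Mouse embryonic fibroblasts (MEFs) of the C57BL/6J-OG2 strain, whose OG2 transgene reports Oct4 with GFP, were infected with retroviruses carrying OCT4, SOX2, KLF4 and c-MYC (OSKM), together with FLAG as the overexpression control, and were cultured in ESC medium with vitamin C until day 5 or day 10. Uninfected MEFs and ESCs were the starting and end points. All 4 groups were wild type, so no library with altered JMJD3 entered, and each group had 2 libraries but only 1 deposited peak list. The first ESC library was labelled C57Bl6J and the second C57BL/6J-OG2. The labels describe ESC culture on a feeder layer of treated MEFs. The methods of the study instead describe feeder-free culture of the ATAC-seq ESCs on gelatin, in medium with LIF, CHIR99021 and PD0325901. By the methods the reprogramming medium held serum and neither of these compounds, so cell state and medium cannot be told apart in the ESC peaks. The reprogramming cells were bulk populations that can hold cells at different stages, so a weak peak in every cell and a strong peak in few cells cannot be told apart.

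In reprogramming, OSKM bind DNA in the fibroblast genome, fibroblast enhancers close, and the enhancers and promoters used by pluripotent cells open at different times. OCT4 and SOX2 can bind side by side at a composite element, KLF4 binds GC-rich boxes, and ESRRB is an orphan nuclear receptor of the naive pluripotency network. Sites that open late are of interest because much of the endogenous pluripotency network is switched on only towards the end of the process.

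The lists held 56514 peaks in MEFs, 36219 on day 5, 35226 on day 10 and 48486 in ESCs. Of 8 pluripotency markers, 8 had an ESC peak within 1 kb of a start site, against 3 on day 10, 3 on day 5 and 4 in MEFs. Of 8 fibroblast markers, 8 had such a peak in MEFs, 7 on day 5, 7 on day 10 and 4 in ESCs. The day 10 population therefore still carried fibroblast start-site peaks, and the ESC list held some as well. The part of feeder cells in the ESC list was not tested.

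Sequences of late-opening regions near pluripotency genes are shown first, because they carry the motifs compared further on. Each is 200 bp of the plus strand of mm10 around the midpoint of the ESC peak, in lower case, with matches to any of 12 searched motifs in capitals. They come from the regions near a listed pluripotency gene outside repeats: first those with the most kinds of octamer, SOX, KLF, ESRRB, composite OCT4-SOX2 and STAT motif, which were the Epha2 and Tdh regions with 2 kinds each, then those with 1 kind in order of day 10 fold enrichment. The Epha2 region (chr4:141283549-141283748), between genes, held a KLF match and an ESRRB match beside a stretch of simple repeats. The region near Nanog (chr6:122740008-122740207), in an intron of the glucose transporter gene Slc2a3, held a KLF, a CTCF and an E-box match, and that near Mycn (chr12:12909777-12909976) held overlapping KLF matches and a TEAD match. The Sall1 region (chr8:89003694-89003893) held the composite OCT4-SOX2 element, and the region upstream of Klf2 (chr8:72271964-72272163) held an AP-1 and a KLF match.
Epha2: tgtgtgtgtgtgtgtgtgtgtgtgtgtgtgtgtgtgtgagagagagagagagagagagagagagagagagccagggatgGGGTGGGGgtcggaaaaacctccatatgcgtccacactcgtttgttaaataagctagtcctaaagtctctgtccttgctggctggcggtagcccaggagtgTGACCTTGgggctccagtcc
Nanog: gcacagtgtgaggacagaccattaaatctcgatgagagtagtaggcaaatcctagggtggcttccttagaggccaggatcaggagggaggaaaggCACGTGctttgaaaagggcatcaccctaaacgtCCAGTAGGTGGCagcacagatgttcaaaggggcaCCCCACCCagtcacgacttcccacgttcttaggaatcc
Mycn: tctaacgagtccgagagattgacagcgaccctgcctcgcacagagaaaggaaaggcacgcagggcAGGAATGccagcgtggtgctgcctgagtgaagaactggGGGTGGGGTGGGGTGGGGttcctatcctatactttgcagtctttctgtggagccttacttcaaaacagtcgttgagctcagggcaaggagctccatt
Sall1: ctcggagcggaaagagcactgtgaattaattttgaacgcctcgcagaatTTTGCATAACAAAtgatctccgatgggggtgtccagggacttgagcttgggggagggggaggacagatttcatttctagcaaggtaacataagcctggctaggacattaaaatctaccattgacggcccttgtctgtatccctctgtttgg
Klf2: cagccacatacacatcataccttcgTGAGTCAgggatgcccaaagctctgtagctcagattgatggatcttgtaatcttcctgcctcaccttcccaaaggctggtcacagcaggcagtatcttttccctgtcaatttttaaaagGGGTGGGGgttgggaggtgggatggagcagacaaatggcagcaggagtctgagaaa

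At Tdh, which encodes the threonine dehydrogenase that mouse ESCs rely on, the region lay over the first exon, so only the 30 bp around its ESRRB match are printed (chr14:63508908-63508937, plus strand).
Tdh: tcggacggagcTGACCTTGtggctgcacca

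The 4 late-opening regions with the highest day 10 fold enrichment outside repeats are shown next, because that value ranked them at the top of the set. Ordered by −log10 q the ranking differs. They lay in an intron of Cacnb4, a calcium channel subunit gene (chr2:52571535-52571734), nearest to the start site of Gm15806 (chr16:14004176-14004375), at the start site of Agps, an enzyme of ether lipid synthesis (chr2:75874035-75874234), and nearest to Gm11637 (chr11:102716011-102716210). The Agps window held an AP-1 match and a composite OCT4-SOX2 match in the opposite orientation to that near Sall1, the Cacnb4 window held a TEAD match, and no searched motif was found in the other two windows.
Cacnb4: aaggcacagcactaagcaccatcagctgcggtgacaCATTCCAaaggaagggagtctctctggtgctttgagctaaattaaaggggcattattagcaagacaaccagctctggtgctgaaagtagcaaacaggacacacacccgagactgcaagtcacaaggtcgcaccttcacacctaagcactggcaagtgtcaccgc
Gm15806: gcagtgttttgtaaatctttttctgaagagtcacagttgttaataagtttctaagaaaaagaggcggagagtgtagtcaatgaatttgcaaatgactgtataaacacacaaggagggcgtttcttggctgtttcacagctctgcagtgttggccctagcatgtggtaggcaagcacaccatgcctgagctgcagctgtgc
Agps: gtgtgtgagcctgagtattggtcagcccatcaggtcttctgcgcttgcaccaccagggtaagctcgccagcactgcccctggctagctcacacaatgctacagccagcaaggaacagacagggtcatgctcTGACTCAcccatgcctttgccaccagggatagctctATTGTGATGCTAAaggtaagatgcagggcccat
Gm11637: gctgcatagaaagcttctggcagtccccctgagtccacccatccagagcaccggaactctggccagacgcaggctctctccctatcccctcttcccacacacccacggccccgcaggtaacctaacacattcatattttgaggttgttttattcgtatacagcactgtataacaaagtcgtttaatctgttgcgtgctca

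Late opening was the less frequent route among ESC regions that opened during reprogramming. Of the 3623 ESC regions with no MEF peak that were open on day 10, 35.1% (33.6 to 36.7) had no listed day 5 peak and the other 2350 had one. A site just under the caller's threshold on day 5 or day 10 is not listed. Opening after day 5 was therefore not tested, and a region with no listed peak was not shown to be closed. A further 730 regions were open on day 5 and no longer on day 10, which is 23.7% of the 3080 open on day 5. By far the most, 24510, had no peak on either day. Read from the side of day 10, 4761 regions were open at that time and in neither MEFs nor day 5 cells, and 26.7% (25.5 to 28.0) of these had an ESC peak, while 3488 did not. These intervals cover counting over regions only, since the lists carry no read counts and 1 list per group gives no spread between libraries.

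The day 10 peaks of the late-opening regions were weak. Their median fold enrichment was 3.01 (quartiles 2.79 and 3.39, range 1.77 to 6.02) and their median width was 438 bp. When day 10 peaks were ordered by score, the median late-opening region stood 76.9% of the way down the list, 25.9% had a fold enrichment above the median of the list, and 30.0% had a −log10 q below 2, close to the lowest value listed. When only the higher-scoring 50% of each list was kept, the rule gave 514 regions, and these overlapped only 94 (7.38%) of the 1273. At ESC regions open on both days, the day 10 peaks had a median fold enrichment of 3.45 and a median width of 687 bp, and 8.04% had a −log10 q below 2. The regions open only on day 10 resembled the late-opening ones, with medians of 2.99 and 400 bp.

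In ESCs the same late-opening regions had average peaks, with a median fold enrichment of 3.46, a median width of 629 bp and a median place 49.3% of the way down the ESC list. ESC peaks of regions open on both days had a median fold enrichment of 3.68, and those of regions open on neither day 3.37. Fold enrichment was higher in ESCs than on day 10 in all but 350 of the 1273 regions, and the ESC peak was at least as wide in all but 391, although enrichments of separate lists depend on each library's background. Because peak values chose the regions, these figures are a description and were not tested.

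**Figure D1:**
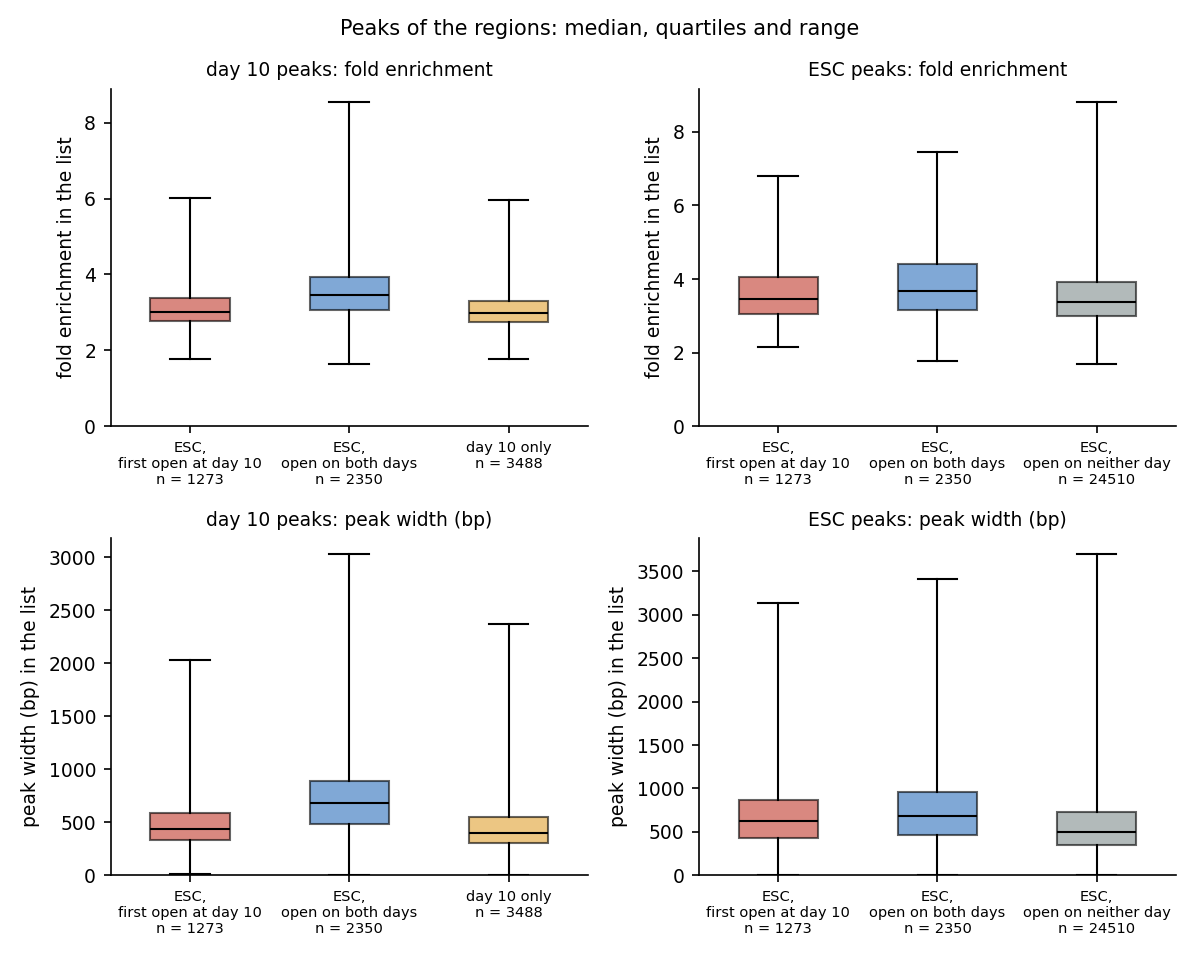
Fold enrichment (top) and width in bp (bottom) of the day 10 peaks (left) and ESC peaks (right), by class of region; boxes give quartiles, lines the median and whiskers the whole range. Day 10 peaks of late-opening ESC regions (median fold enrichment 3.01) sit with those of regions open only on day 10 (2.99) and below those of ESC regions open on both days (3.45).

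The day 10 and ESC peaks overlapped in 1214 regions (95.4%), by at least 50% of both peaks in 663, and lay apart within the merging distance in 59. Regions had a median length of 764 bp (198 to 3140) and covered 1.08 Mb in all. Across the 1273 regions, Spearman's rho between day 10 and ESC fold enrichment was 0.216, and between widths 0.0877; regions are not independent replicates. Just inside the rule, the nearest MEF or day 5 peak to a late-opening region lay 411 bp, 426 bp and 430 bp away. Just outside it, regions were left out for such a peak at 398 bp, 374 bp and 349 bp from the day 10 and ESC peaks, and 31 were left out although that peak overlapped neither. A MEF peak lay within 5 kb of 365 late-opening regions and a day 5 peak within 5 kb of 187.

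To see what distinguishes late-opening regions beyond the peaks that chose them, 14 features were compared with ESC regions open on both days, with ESC regions open on neither day, and with regions open only on day 10. The features were an annotated start site within 5 kb, a 200 bp window that is over 50% repeat-masked, and 12 sequence motifs in that window. The window lay on the ESC peak in the first pair of comparisons and on the day 10 peak in the last. Two-sided Fisher's exact tests were adjusted over all 42 tests by Benjamini-Hochberg, with Newcombe 95% intervals for the differences. Of the 14 features, 4 passed in each of the comparisons with other ESC regions and 5 in the comparison with regions open only on day 10. Neighbouring regions and motifs are not fully independent, so these p-values hold for regions within these lists and not for repeated experiments.

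Late-opening regions lay near annotated start sites more often than every class they were compared with. A start site of any annotated transcript stood within 5 kb of 462 of the 1273 (36.3%). This was 6.29 percentage points more than the 30.0% of regions open on both days (95% interval 3.08 to 9.53, Fisher's exact test, adjusted p = 0.000747), 6.73 points more than the 29.6% of those open on neither day (4.07 to 9.47, adjusted p = 4.1e-06) and 5.87 points more than the 30.4% of those open only on day 10 (2.85 to 8.95, adjusted p = 0.00078). The late-opening share was the higher on 15, 16 and 17 of 19 autosomes, respectively. The nearest class of distance carried most of the excess: 217 late-opening regions (17.1%) stood within 1 kb of a start site, against 11.7%, 11.6% and 11.0% of the other classes. Measured from the midpoint of the peak rather than the edge of the region, 14.8% of late-opening ESC peaks lay within 1 kb of a start site against 9.19% for both days and 10.1% for neither day.

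CpG content was also highest at late-opening regions, but the other ESC classes did not follow the order of their start-site shares. Windows with at least 4 CpG made up 34.2% of late-opening regions, 23.6% of those open on both days and 29.3% of those open on neither day, and the mean GC content was 48.7% ± 7.58 (SD over 1273 windows), 45.8% ± 7.27 and 47.5% ± 7.15. In windows with fewer than 4 CpG, the start-site share was 30.8% against 26.8% for both days, a difference of 3.95 points (0.264 to 7.73) that missed the threshold (Fisher's exact test, adjusted p = 0.11), and 31.8% against 27.8% for day 10 only (adjusted p = 0.108). Against regions open on neither day it still passed there (30.8% against 25.9%, exact test, adjusted p = 0.0132). Among peaks above the median fold enrichment of their list, the difference from regions open only on day 10 missed the threshold too (7.39 points, exact test, adjusted p = 0.0583). Altogether 142 late-opening regions covered an annotated start site, 105 of them that of a protein-coding gene, while by the midpoint of the window 128 fell in exons, 615 in introns and 530 between genes.

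**Figure D2:**
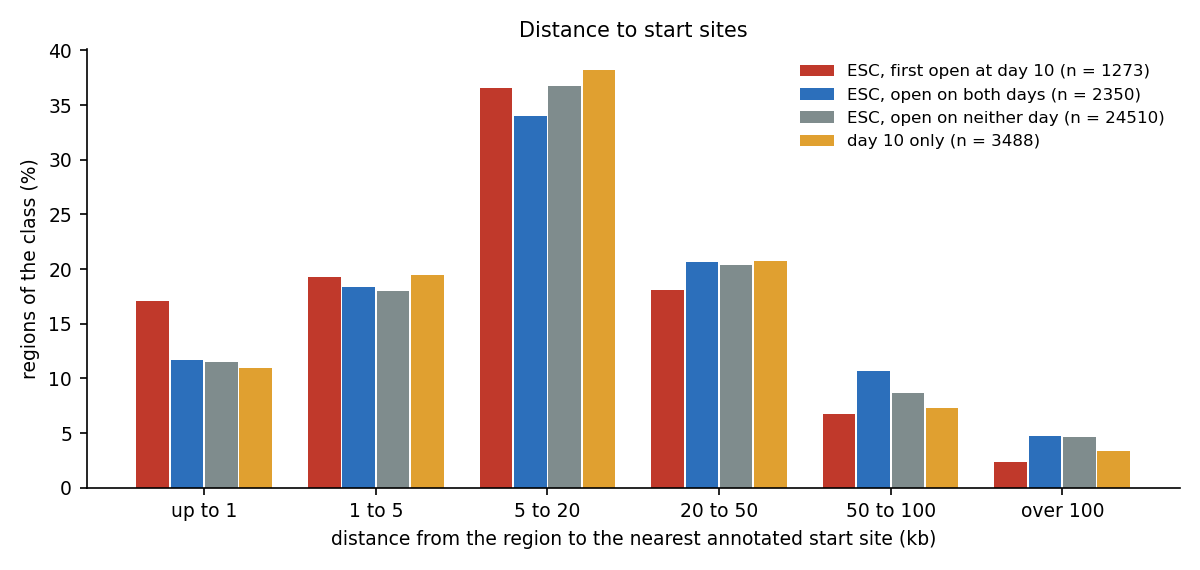
Share of regions (%) in each class of distance (kb) to the nearest annotated start site, for the 4 classes of region. Late-opening ESC regions exceed the other classes within 1 kb (17.1% against 11.7%, 11.6% and 11.0%) and fall below them beyond 50 kb.

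Repeats separated the classes in the opposite order on the ESC side and the day 10 side. Of late-opening ESC windows, 11.9% were mostly repeat-masked, against 22.5% of those open on neither day, a difference of −10.6 points (−12.3 to −8.63, Fisher's exact test, adjusted p = 1.19e-19) that had the same direction on 19 of 19 autosomes. Against regions open on both days (15.9%) the difference was −3.93 points (−6.20 to −1.56, exact test, adjusted p = 0.00546), which missed the threshold when the windows were set on the day 10 peak (−2.29 points, adjusted p = 0.182), away from start sites (−3.70 points, adjusted p = 0.098) and in windows with fewer than 4 CpG (−3.43 points, adjusted p = 0.11). Among newly open day 10 regions, by contrast, those shared with ESCs were repeat-masked more often than those that were not, 11.1% against 5.94% (5.14 points, 3.33 to 7.13, exact test, adjusted p = 1.08e-07).

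SOX motifs were less frequent at late-opening regions than at those open from day 5. The searched letters were CCATTGT and CCTTTGT, on both strands as for all motifs. They occurred in 181 of the late-opening ESC windows (14.2%) and in 496 of the 2350 windows open on both days (21.1%), a difference of −6.89 points (−9.37 to −4.31, Fisher's exact test, adjusted p = 2.84e-06), and the late-opening share was the lower on each of 19 autosomes. With windows on the day 10 peak the gap was −8.91 points (exact test, adjusted p = 3.55e-10), and it passed the threshold under each alternative tried. Late-opening regions held SOX letters about as often as ESC regions open on neither day (13.9%, interval of the difference −1.51 to 2.42 points), although with lists of equal length the difference turned to −2.47 points and passed (exact test, adjusted p = 0.0301). On the day 10 peak they held them about as often as regions open only on day 10 (13.0% against 13.1%, −2.26 to 2.07 points). All of these were above the 6.80% of 2546 windows set 1 kb to either side of the late-opening ESC peaks, and the share in all 101701 regions was 10.1%.

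KLF motifs were more frequent at late-opening regions than at ESC regions with no listed peak on day 5 or day 10. The letters CCACACCC, CCACGCCC, CCCCACCC and CCCCGCCC, of the kind capitalised near Epha2, Nanog, Mycn and Klf2, occurred in 15.8% of late-opening ESC windows and 9.59% of windows open on neither day, a difference of 6.20 points (4.27 to 8.34, Fisher's exact test, adjusted p = 3.32e-10) with the same direction on 17 of 19 autosomes. The difference was 6.11 points in windows with fewer than 4 CpG (exact test, adjusted p = 1.23e-07) and 4.61 points away from start sites (adjusted p = 0.000203). Against regions open on both days (12.3%) it was 3.53 points (1.18 to 5.99, exact test, adjusted p = 0.0128), but this call was lost away from start sites (1.83 points, adjusted p = 0.515), with windows on the day 10 peak (0.461 points, adjusted p = 0.856) and under 5 other alternatives. Regions open only on day 10 held KLF letters in 14.2% of windows against 15.4% here (interval of the difference −1.05 to 3.54 points). In the flanking windows the share was 7.07%, and in all regions 11.1%.

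ESRRB letters were most frequent at the ESC regions with no listed peak during reprogramming. CAAGGTCA, seen on the minus strand at Tdh and Epha2, occurred in 22 late-opening ESC windows (1.73%) and in 1047 of 24510 windows open on neither day (4.27%), a difference of −2.54 points (−3.18 to −1.64, Fisher's exact test, adjusted p = 7.84e-06). The late-opening share was close to that of regions open on both days (1.66%, −0.770 to 1.05 points) and to the 1.49% of its own flanks. It was nevertheless above the 0.602% of regions open only on day 10, by 1.13 points (0.462 to 2.03, exact test, adjusted p = 0.00342), a call lost among the higher-scoring 50% of each list (adjusted p = 0.0809) and among peaks above the median fold enrichment (adjusted p = 0.592).

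The composite OCT4-SOX2 element was rare. It was searched as a SOX part and an octamer part separated by 1 base, and can share bases with an octamer or SOX match. The element was found in 10 late-opening ESC windows (0.786%, 0.427 to 1.44) and in 0 of 2546 flanking windows, which allows a share of up to 0.118%. Regions open on both days held it at 0.681% and those open on neither day at 0.355% (adjusted p = 0.0862 by Fisher's exact test). On the day 10 peak it occurred in 8 late-opening windows and in 5 of the 3488 windows open only on day 10 (0.628% against 0.143%, exact test, adjusted p = 0.0281), a call on so few windows that was lost under 6 alternatives, among them regions away from start sites (adjusted p = 0.271). The octamer ATGCAAAT alone occurred in 3.61% of late-opening ESC windows and 1.53% of their flanks, and differed from no class (exact test, adjusted p from 0.522 to 0.944).

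TEAD letters, CATTCCA or CATTCCT, occurred in 10.8% of late-opening day 10 windows against 7.97% of those open only on day 10 (2.87 points, 1.02 to 4.89, Fisher's exact test, adjusted p = 0.00964), which was lost among others in windows with fewer than 4 CpG (adjusted p = 0.11). Against ESC regions open on neither day, TEAD letters missed the threshold with the settings above (−1.69 points, exact test, adjusted p = 0.205). That difference passed with lists of equal length (−2.80 points, exact test, adjusted p = 0.00741). It also passed among the higher-scoring 50% of each list (−4.81 points, exact test, adjusted p = 0.00613). AP-1 (TGACTCA or TGAGTCA), the motif typical of fibroblast enhancers, occurred in 3.93% of late-opening ESC windows and 2.99% of their flanks, against 11.4% of all regions, and differed from none of the 3 classes (exact test, adjusted p from 0.625 to 1). CTCF occurred in 1.57% of late-opening ESC windows and 0.0786% of flanks, and the comparisons with the 3 classes missed the threshold (exact test, adjusted p from 0.307 to 0.409). It passed in 400 bp windows against regions open on both days (1.76 points, exact test, adjusted p = 0.00313) and on neither day (1.40 points, adjusted p = 0.00479), and with lists of equal length against the latter (1.53 points, adjusted p = 2.72e-05). STAT (TTCCNGGAA), GRHL (AACCGGTT, AACCAGTT or AACTGGTT), ETS (CCGGAAG) and E-box (CACGTG) letters were each present in under 3% of late-opening ESC windows and passed in no comparison with the settings above. Under alternatives, ETS passed against regions open only on day 10 with lists of equal length (1.25 points, exact test, adjusted p = 0.00296) and in 400 bp windows (1.18 points, adjusted p = 0.0434). E-box passed there in 400 bp windows, with the direction turned (2.35 points, exact test, adjusted p = 0.00996), and against regions open on both days among peaks above the median fold enrichment (2.17 points, adjusted p = 0.0206). In all 101701 regions, windows on the widest peak held TEAD letters in 11.1%, E-box in 2.93%, octamer in 2.19%, ETS in 1.97%, ESRRB in 1.80%, CTCF in 1.12%, STAT in 0.826%, GRHL in 0.706% and the composite element in 0.155%. No searched motif was found in 684 late-opening ESC windows (53.7%). A match is a run of letters and was not tested for binding.

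**Figure D3:**
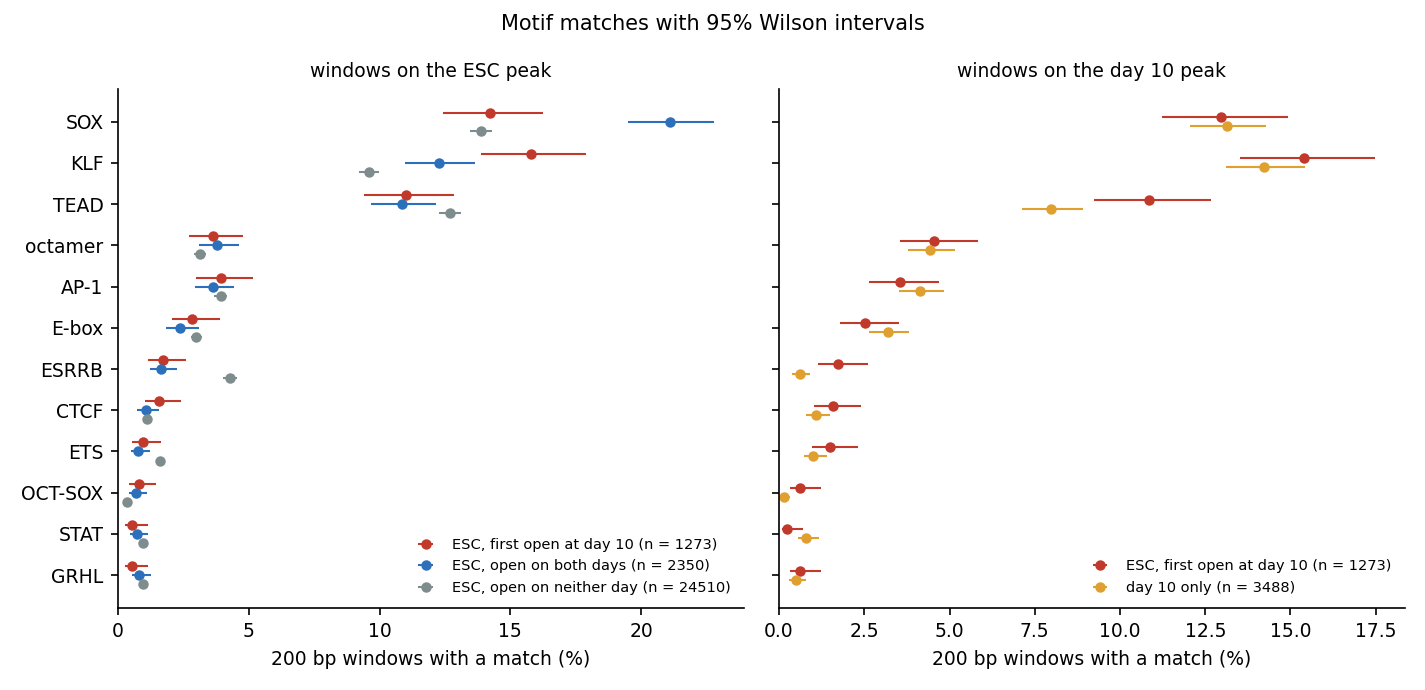
Share of 200 bp windows (%) with a match to each motif, with 95% Wilson intervals: left, windows on the ESC peak for late-opening regions and ESC regions open on both days or on neither day; right, windows on the day 10 peak for late-opening regions and regions open only on day 10. SOX letters stand at 14.2% in late-opening regions and 21.1% in regions open on both days, KLF letters at 15.8% against 9.59% in regions open on neither day.

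Late-opening regions were then assigned to genes by a 50 kb window around annotated start sites. Of 21938 protein-coding genes, 1873 (8.54%) had a late-opening region in that window, 11.8% had an ESC region open on both days and 67.9% had one open on neither day. Of 142 genes in 6 lists, 24 (16.9%) had a late-opening region, 30 (21.1%) an ESC region open on both days and 126 (88.7%) one open on neither day. The lists are short, were chosen with earlier results known and hold genes with many ESC peaks, so the counts are a description.

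Among 22 naive and core pluripotency factors, 6 had a late-opening region (27.3%, against 8.54% of all coding genes), among them Nanog, Klf2, Tfcp2l1, Sall1 and Foxd3. Near Nanog, the homeodomain factor of the naive state, the region lay 32.3 kb downstream of the start site with a fold enrichment of 3.53 on day 10 and 2.50 in ESCs, and a MEF peak stood 1.32 kb from it. Tfcp2l1, a naive factor downstream of LIF, had an intronic region 14.4 kb downstream whose ESC peak was among the strongest of the ESC list (−log10 q of 20.9, fold enrichment 4.39) while its day 10 peak reached 3.10. Klf2, a Krüppel-like factor that can take the place of Klf4 in ESCs, had regions 46.5 kb upstream and 34.8 kb downstream, with day 10 fold enrichments of 3.01 and 2.87. Both ESC peaks were weak (2.485 and 2.652, −log10 q of 1.885 and 1.815). The downstream region lay in an intron of Eps15l1, with a MEF peak 1587 bp away. Foxd3, a forkhead factor needed in the early epiblast, had a region 13.8 kb upstream with 3.37 on day 10 and 4.80 in ESCs. Sall1, a zinc-finger gene, had a region 39.9 kb downstream with a day 10 fold enrichment of 2.98 and 3.25 in ESCs. By comparison, 5 of these 22 genes had an ESC region open on both days and 21 had ESC regions open on neither day. Esrrb, for one, had 11 regions of that last class and no late-opening one.

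Of 24 other genes expressed in pluripotent cells, 5 had a late-opening region (20.8%): Tdh, Fgf17, Trim71, Epha2 and Mycn. More of them, 7 (29.2%, against 11.8% of all coding genes), had an ESC region open on both days. The Tdh region covered the start site, with a fold enrichment of 2.91 on day 10 and 3.70 in ESCs. Trim71, which encodes an RNA-binding ubiquitin ligase of the let-7 pathway, had intronic regions 6.87 kb and 14.4 kb from the start site, both with weak day 10 peaks (2.30 and 2.61). Mycn, the N-MYC gene, had a region 30.4 kb downstream (3.13 and 3.52). Epha2, an ephrin receptor gene, had a day 10 peak of only 2.17 at −16.6 kb, where the −log10 q was 1.20. The region assigned to Fgf17 lay 5.52 kb from its start site and covered a start site of the neighbouring Dmtn, with the ESC peak midpoint in a Dmtn intron. Its day 10 and ESC peaks were merged without overlapping and share no base. Dppa4 had 6 ESC regions open on neither day and none that opened late.

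Of 24 epithelial genes, 5 had a late-opening region (20.8%): Marveld2, St14, Grhl3, Cldn3 and Crb3. An ESC region open on both days also lay near 5 of the 24 (20.8%). The mesenchymal-to-epithelial transition is an early step of fibroblast reprogramming. Marveld2, whose product tricellulin seals tight junctions where 3 cells meet, had a region over its start site (fold enrichment 3.62 on day 10 and 3.24 in ESCs). St14, the gene of the membrane protease matriptase, had an exonic region (3.83 on day 10, 2.84 in ESCs) and the longest region of all, 3140 bp in an intron, where the day 10 peak covered only 293 bp. Grhl3, a grainyhead-like factor of surface epithelia, had a region 7.94 kb upstream with a weak day 10 peak (2.44), and Cldn3, a claudin of tight junctions, one 14.6 kb downstream (2.58). That region near Cldn3 covered a start site of another gene, Wbscr25. The region assigned to Crb3, a polarity gene, lay 33 bp from a start site of Tubb4a and 24.8 kb from that of Crb3. Cdh1 and Epcam, the adhesion genes of epithelia, had no late-opening region. Within 50 kb, Cdh1 had 1 ESC region open on both days and 2 open on neither day, and Epcam had 0 and 2.

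Signalling genes of the LIF, BMP, Wnt and FGF pathways had 4 of 24 with a late-opening region (16.7%) and 7 of 24 with an ESC region open on both days (29.2%). Lifr, the LIF receptor subunit through which ESCs keep the naive state, had a region over an annotated start site with 3.72 on day 10 and 2.85 in ESCs, but there too the peaks of the 2 lists did not overlap. Spry2, an inhibitor of FGF signalling, had a region 23.6 kb upstream with an ESC fold enrichment of 5.30 and 2.85 on day 10, and a second one 44.9 kb downstream (3.25 and 3.39). Tcf7l1, the TCF3 repressor of the pluripotency network, had an intronic region 47.6 kb into the gene (2.63 and 4.41). Fgfr1 had a region 49.9 kb upstream, at the edge of the window, with a day 10 −log10 q of 1.39.

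For fibroblast and mesenchymal genes and for chromatin regulators the counts were 2 of 24 each (8.33%), close to the 8.54% of all coding genes. Regions open on both days lay near 2 (8.33%) and 4 (16.7%) of these genes, respectively. Zeb2, a repressor of E-cadherin, had the region with the highest day 10 fold enrichment near any listed gene (4.20, and 4.48 in ESCs), 40.8 kb upstream. By day 10 −log10 q the region near Nanog stood higher (6.59 against 5.55). Snai1, another repressor of E-cadherin, had an intronic region with a day 10 fold enrichment of 2.01 and a MEF peak 919 bp away. Jarid2, a partner of Polycomb repressive complex 2, had a region 23.3 kb upstream (3.54 and 4.35), and Tet3, a DNA hydroxylase, an intronic one (2.66 and 4.37). Around the genes carried by the viruses, Pou5f1, Sox2, Klf4 and Myc, there was no late-opening region within 50 kb.

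**Figure D4:**
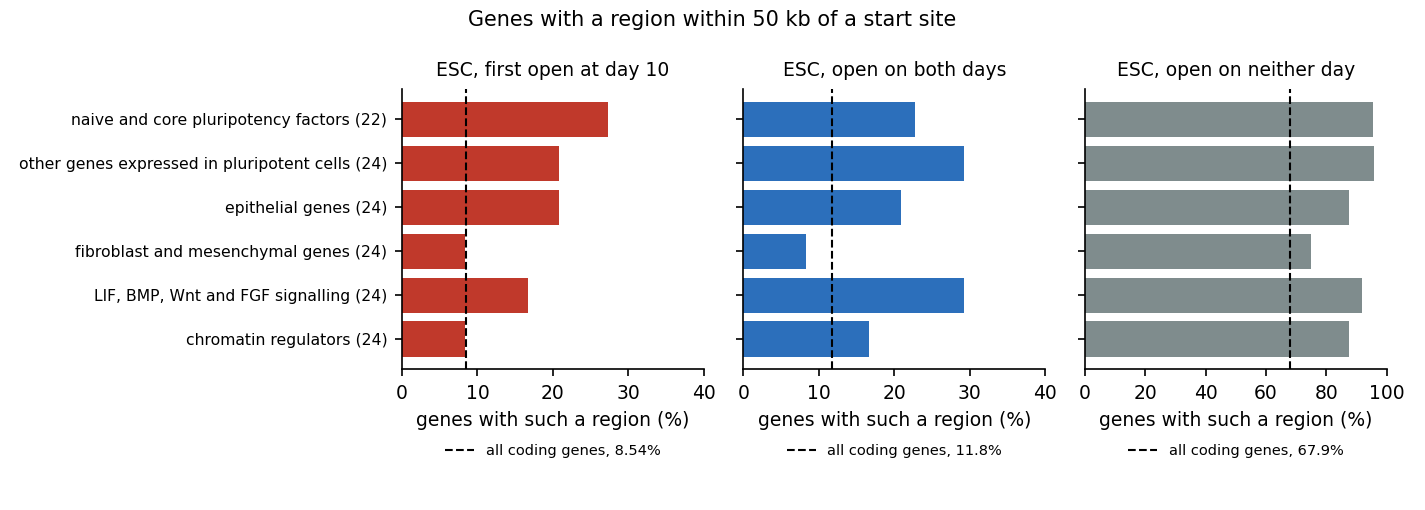
Share of genes (%) in each of 6 lists with at least 1 region within 50 kb of a start site, for late-opening ESC regions and ESC regions open on both days or on neither day; numbers of genes in brackets, dashed lines the share of all protein-coding genes, and the last panel has a wider axis. The naive and core pluripotency list reaches 27.3% for late-opening regions against 8.54% of all coding genes, and the fibroblast and chromatin lists 8.33%. For regions open on both days the other pluripotency list and the signalling list reach 29.2%.

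**Figure D5:**
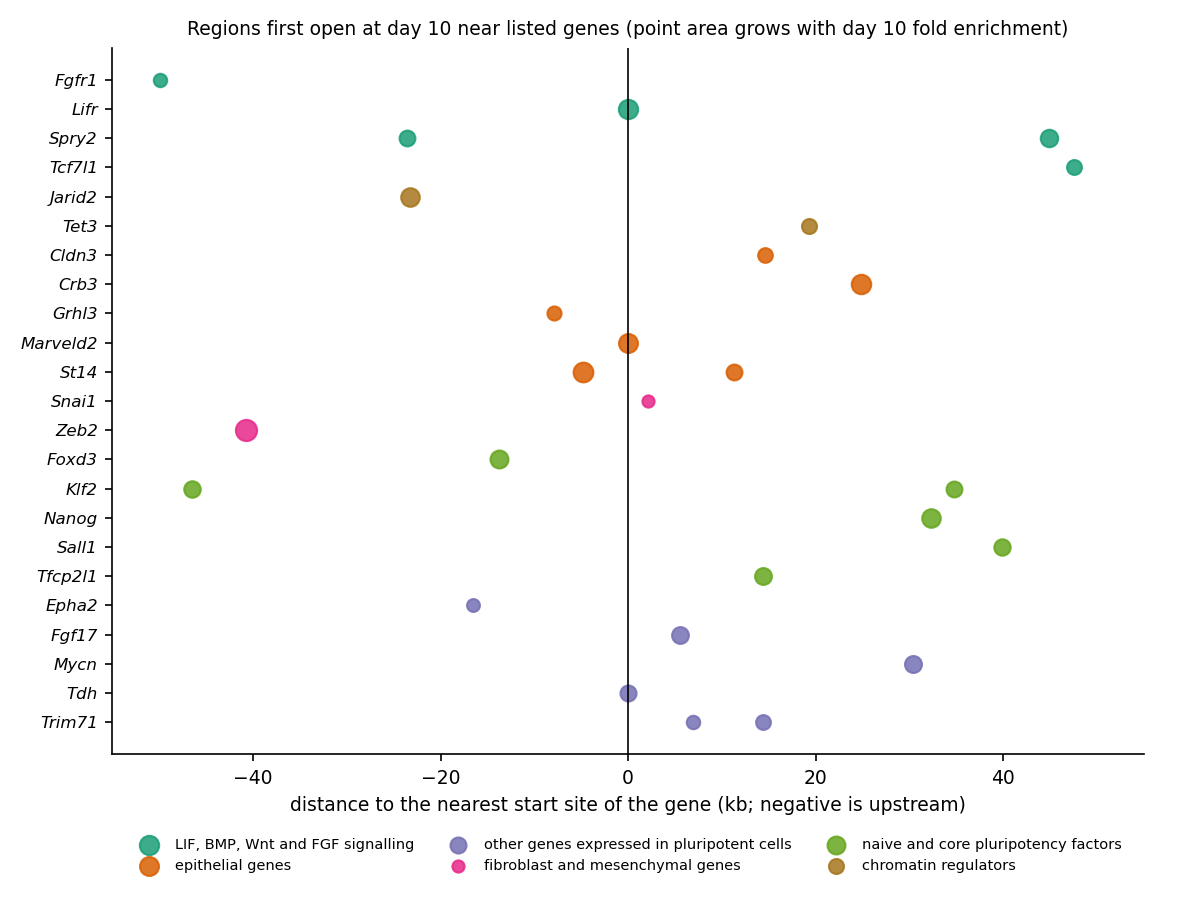
Late-opening ESC regions near 23 listed genes, by distance from the region's edge to the nearest annotated start site of the gene (kb, negative upstream); colours mark the list and point area grows with day 10 fold enrichment. Only Lifr, Marveld2 and Tdh have a region at 0, over a start site, and the regions plotted near naive and core factors lie from 13.8 kb to 46.5 kb away.

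The highest day 10 fold enrichments of the set belonged to regions near other genes. The top value, 6.02 (5.91 in ESCs), lay 456 bp from the start site of the pseudogene Ppp1r2-ps1 in a window that was repeat-masked over 89% of its length. Cacnb4 had 5.09, Gm15806 at 4.99, Agps at 4.90 and Gm11637 at 4.79. Erich3 had a region over its start site (4.58, and 4.20 in ESCs), 1700028B04Rik one in an intron of Samd4b (4.56 and 5.98), Cwh43, a gene of lipid anchor remodelling, an intronic one (4.53 and 5.41), and Jup, the gene of the junction protein plakoglobin, one 1.69 kb from its start site (4.50 and 3.94). None of these genes was in the lists.

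Another late-opening region lay within 20 kb of 49 late-opening regions (3.85%), a share near the 4.21% of regions open on both days and the 3.41% of regions open on neither day that had a late-opening region at that distance. An ESC region open on neither day lay within 20 kb of 48.3% of late-opening regions, 43.9% of those open on both days and 44.8% of those open on neither day, which is by far the largest class. These shares were not tested. Per gene, 1755 coding genes had 1 late-opening region within 50 kb, 112 had 2 and 6 had 3. Those with 3 were Ank2, a membrane scaffold gene, B3gnt3 and its neighbour Fcho1, which share the same regions, Myo10, a filopodial myosin, Rbm20, a splicing regulator, and Vangl1, a planar polarity gene. The day 10 fold enrichment of these regions ranged from 2.28 to 4.38.

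By chromosome, 1255 of 28169 autosomal ESC regions with no MEF peak opened late (4.46%, 4.22 to 4.70) and 17 of 687 on the X chromosome (2.47%, 1.55 to 3.93). The ranges do not meet, but the number of X chromosomes in each line is not given in the labels, and its part was not tested. Chromosome 11 had the highest autosomal share, 6.38%, and chromosome 3 the lowest, 3.27%.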

How the data were processed

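The authors aligned ATAC-seq reads to mm10 with Bowtie2 (version 2.2.0 in the submitters' notes), removed low-quality, non-unique and mitochondrial reads, and deposited 1 broad-peak list per group for 8 libraries. The peak caller is not given in the sources used here. The deposited columns hold interval positions, a score (10 times the truncated −log10 q), a fold enrichment (ratio), −log10 p values (not used) and −log10 q values, with the smallest −log10 q just above 1 (q of 0.1). The intervals look like the overlap of the peaks of both libraries, and the fold enrichment like that of the first library. Read counts are not given, so depth is unknown and no interval covers it. All per-sample columns belonged to a group, 0 were left unused, and no authors' comparison was used.

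Peaks were merged within 400 bp and annotated with GENCODE mouse release 21 (132666 distinct start sites) and soft-masked GRCm38, whose 21 chromosome lengths fit all peaks. Windows of 200 bp were searched on both strands. Shares were compared by two-sided Fisher's exact tests with Benjamini-Hochberg adjustment over 42 tests, at a threshold of 0.05. Scripts used Python 3.11.15, scipy 1.17.1 and statsmodels 0.14.6 and were tested on simulated data. The regions, gene lists and motifs were chosen with earlier results of these data known.

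Genes named were every listed gene with a late-opening region within 50 kb (at most 30), the nearest start site to the 10 regions with the highest day 10 fold enrichment, the 5 coding genes with the most regions (Vangl1, which ties with them, was added after values were seen), the 4 reprogramming factors, and Esrrb, Dppa4, Cdh1 and Epcam, named after values were seen. Some items that this rule names are not reported here. Sequences were read from the genome; none on chromosome 18 or in repeats was printed, and a window touching an untranslated region was shortened to 30 bp.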

Additional observations from a re-analysis of the deposited data

How the results depend on the processing

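The 1273 late-opening regions became 514 with the higher-scoring 50% of each list, of which the original regions overlapped in only 94 cases (7.38%), 663 when day 10 and ESC peaks had to overlap by 50% of both, and 844 with no MEF or day 5 peak within 5 kb. The counts of features past the threshold moved by more than 1.5 times in these cases. Against ESC regions open on neither day, 7 passed with lists of equal length. Against regions open on both days, 2 passed with windows on the day 10 peak, 1 without regions near start sites and 1 in windows with under 4 CpG. Against regions open only on day 10, 2 passed with the higher-scoring 50%, 2 without repeat-masked windows and 2 in windows with under 4 CpG. With peaks above the median fold enrichment, 1 passed there. Leaving out regions near start sites took the start-site feature out of the comparison, and leaving out repeat-masked windows took out the repeat feature. Part of the fall in those counts was therefore set in advance. Gene counts within 10 kb were 1 for naive and core factors, 3 for other pluripotency genes, 3 for epithelial, 1 for fibroblast, 1 for signalling and 0 for chromatin genes, beside 2.47% of all coding genes. Within 100 kb they were 9 for naive and core factors, 7 for other pluripotency genes and 11 for epithelial genes. For fibroblast, signalling and chromatin genes they were 4, 6 and 4, beside 15% of all coding genes. The naive and core list thus had the highest share at 50 kb only. The SOX difference from regions open on neither day turned to −2.47 points (Fisher's exact test, adjusted p = 0.0301) with lists of equal length, and the E-box difference from regions open only on day 10 to 2.35 points (adjusted p = 0.00996) in 400 bp windows; the cause was not tested. Of 437 single-feature values under alternatives, 401 kept direction and side of the threshold, or missed it both times, 25 fell below it and 9 rose above it. The settings on CpG, peak strength and distance from the peak midpoint were chosen after seeing the data. No paired analysis was possible because both libraries of a group are in 1 list, and leaving out a library was not possible for that reason. The unknown depth of the day 5 libraries limits how firmly a region can be called closed on day 5, since a site just under the caller's threshold is not listed.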
